A study of Arabidopsis thaliana with 8 samples.

Results

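The 3 genes described here encode enzymes of phytol, tocopherol and carotenoid synthesis in the plastid. AT1G78620 encodes a phytyl phosphate kinase, AT1G74470 a geranylgeranyl reductase, and Z-ISO (AT1G10830) a zeta-carotene isomerase. Each was measured by 1 probe that the platform annotation pairs with that gene alone, out of 692 such probes and 3439 probes in all. The genes were chosen by their place in these pathways and on their red against white values in the same arrays, which were known when they were picked. Their difference between the lights is therefore described with its spread and is not tested.

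Wild-type Arabidopsis thaliana plants of the Landsberg ecotype, a common laboratory strain, received red light or white light at 20 µE for 48 h. Total RNA of 4 samples per light was measured, and the samples carry the numbers 1 to 4 in each light. All samples share the genotype and the stated light intensity, and differ in the light given. The labels give no age, tissue or growth before the treatment, and do not say whether samples came from separate plants, so that the p-values below cover the spread among these samples alone, whether technical or biological. In RNA of many cells, fewer cells of a type and less RNA per cell cannot be told apart.

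Carotenoids, tocopherols and the phytol tail of chlorophyll all derive from geranylgeranyl diphosphate made in the plastid. Geranylgeranyl reductase saturates the geranylgeranyl chain to phytyl, for chlorophyll and for tocopherol. Phytol, which is set free when chlorophyll is broken down, is first turned into phytyl phosphate by another kinase. Phytyl phosphate kinase turns phytyl phosphate into phytyl diphosphate, the tail donor of tocopherol. Zeta-carotene isomerase works in the other branch, between the desaturases that turn phytoene into lycopene, and acts on a cis bond that light can also isomerize.

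The 3 genes differed in opposite directions between the lights. In red light the kinase AT1G78620 was several times brighter and the isomerase Z-ISO was dimmer. The reductase AT1G74470 was brighter on the deposited scale and close to its white level after quantile normalization. A limma fit across all 3032 tested probes called 2 of the 3 genes at an adjusted p under 0.05, 1 higher and 1 lower in red light. Since that contrast served to pick them, nothing is read from this count, which stands beside 22.0% of all tested probes called, 11.0% higher and 10.9% lower.

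For AT1G78620, the intensities as deposited, in arbitrary units, were 1.11, 0.949, 2.39 and 1.91 in red samples 1 to 4. In white samples 1 to 4 they were 0.197, 0.157, 0.295 and 0.276. Every red sample lay above every white sample, and samples 3 and 4 lay above samples 1 and 2 in either light. The red mean was 1.59 ± 0.678 and the white mean 0.231 ± 0.0651 (SD, n = 4 each). After quantile normalization, which gives all arrays the same distribution of values, the log2 fold change was 2.76 ± 0.28 (SE), or 6.75-fold. This was the 13th highest value among the 3032 tested probes and the 2nd highest among the 614 tested probes of 1 gene. The SEs given here and below take all samples as independent. Samples 1 and 2, and samples 3 and 4, of a light resembled each other, so that these SEs can be too small.

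The excess of AT1G78620 in red light was similar for each sample number. As deposited, the ratio of red to white was 5.65 for samples numbered 1, 6.04 for samples numbered 2, 8.10 for samples numbered 3 and 6.94 for samples numbered 4. After quantile normalization these ratios were 6.00, 7.19, 7.43 and 6.49. The log2 fold change was 2.71 when samples 1 and 2 were taken alone, against 2.80 for samples 3 and 4. The level itself was less even, since samples 3 and 4 exceeded samples 1 and 2 by 1.06 (log2 of the deposited values) in red light and by 0.70 in white light. After quantile normalization these gaps were 0.65 and 0.57.

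**Figure D1:**
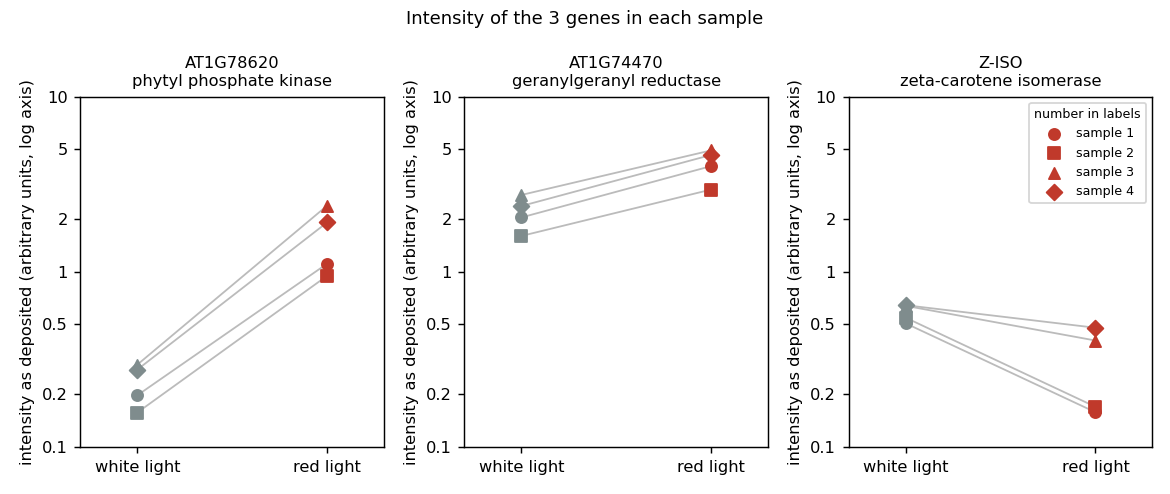
Intensity as deposited, on a log axis in arbitrary units, of AT1G78620, AT1G74470 and Z-ISO in each white light sample (grey) and red light sample (red). The lines join samples of the same number in the labels. AT1G78620 lies between 0.949 and 2.39 in red light and between 0.157 and 0.295 in white light, and Z-ISO splits in red light into samples 1 and 2 at 0.158 and 0.169 and samples 3 and 4 at 0.405 and 0.479.

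For AT1G74470, the deposited intensities were 4.01, 2.95, 4.94 and 4.65 in red samples 1 to 4. The white samples 1 to 4 had 2.04, 1.60, 2.75 and 2.37. The lowest red value exceeded the highest white value, so that the groups did not overlap as deposited. The red mean was 4.14 ± 0.881 and the white mean 2.19 ± 0.487 (SD, n = 4 each). Between samples of the same number, the ratio of red to white was 1.97, 1.84, 1.80 and 1.96 for numbers 1 to 4. The SD of the log2 ratio over these 4 values was 0.064, against 0.230 for AT1G78620 and 0.668 for Z-ISO. The reductase thus had the narrowest spread of the 3 genes on that scale. After quantile normalization the SD was 0.193 for AT1G74470, 0.141 for AT1G78620 and 0.732 for Z-ISO, so that this order depended on the scale.

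The difference of AT1G74470 between the lights also depended on how the arrays were scaled. After quantile normalization the intensities of AT1G74470 were 3.49, 2.78, 3.63 and 3.39 in red samples 1 to 4 and 3.26, 2.37, 2.78 and 2.33 in white samples 1 to 4. The groups overlapped, and the means were 3.32 ± 0.373 and 2.69 ± 0.436. The log2 fold change was 0.31 ± 0.20 (SE), or 1.24-fold, against 0.92 on the deposited scale and 0.93 with each array centred on the median of its positive values. With the median taken over all probes, those at 0 included, it was 1.12. The median log2 fold change of all tested probes was itself -0.03 after quantile normalization, -0.14 on the deposited scale, -0.15 with centring on positive values and 0.01 with centring over all probes. Relative to these medians, AT1G74470 differed by 0.34, 1.06, 1.07 and 1.102. With a floor set for each array, no probe was left out and that median was 0.20. The log2 fold change of AT1G74470 itself stayed at 0.31 there, so that it differed from the median by 0.12. Red arrays had 573 to 604 probes at 0 and white arrays 393 to 468, and such a probe took the floor of its array. The median of 0.20 thus includes differences between the floors themselves, and nothing is read from the 0.12.

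The arrays differed between the lights in their bright range, where AT1G74470 lay. The 97th percentile of intensity ran from 2.87 to 3.69 on red arrays and from 1.82 to 2.85 on white arrays. Within each light, samples 3 and 4 lay above samples 1 and 2. They had 3.57 and 3.69 against 2.87 and 2.98 on red arrays, and 2.76 and 2.85 against 1.84 and 1.82 on white arrays. Summed intensity ran from 2549 to 3196 on red arrays and from 1691 to 2373 on white arrays. The part of these differences in the result for AT1G74470 was not tested beyond the change of scale above.

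**Figure D2:**
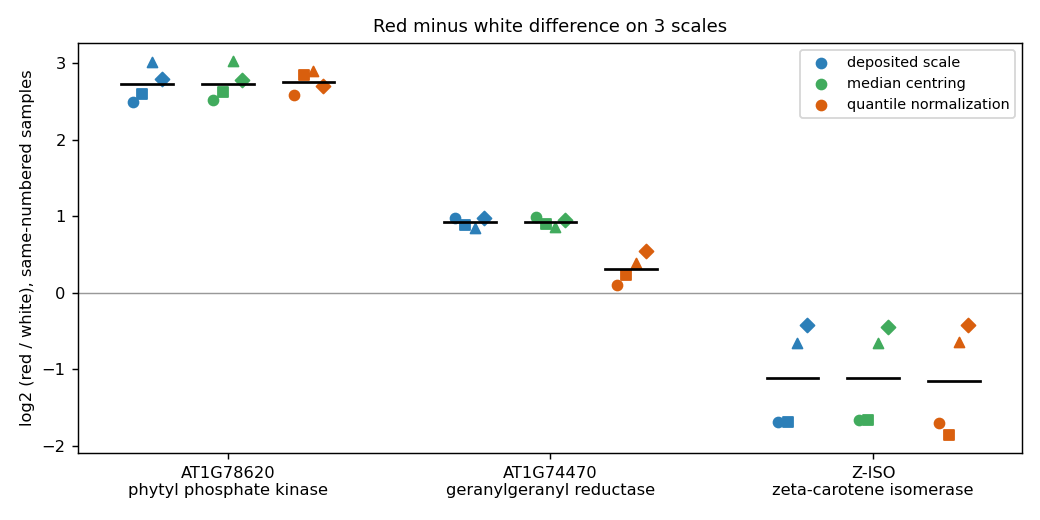
Log2 ratio of red to white between samples of the same number (circle 1, square 2, triangle 3, diamond 4) for each gene on the deposited scale, with median centring over positive values and after quantile normalization. Bars mark the mean of the 4 values. The mean for AT1G74470 is 0.92, 0.93 and 0.31 on the 3 scales, while the means for AT1G78620 stay between 2.73 and 2.76 and those for Z-ISO between -1.16 and -1.11.

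For Z-ISO, the deposited intensities were 0.158, 0.169, 0.405 and 0.479 in red samples 1 to 4. In white samples 1 to 4 they were 0.508, 0.547, 0.639 and 0.644. All red samples lay below all white samples, and the highest red value, that of sample 4, came close to the lowest white value, that of sample 1. The red mean was 0.303 ± 0.164 and the white mean 0.585 ± 0.0680 (SD, n = 4 each). After quantile normalization the log2 fold change was -1.16 ± 0.29 (SE), or 2.23-fold lower in red light. This was the 262nd lowest value among the 3032 tested probes and the 54th lowest among the 614 of 1 gene.

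The deficit of Z-ISO in red light was much deeper in some sample numbers than in others. As deposited, the ratio of red to white was 0.311 and 0.310 for samples numbered 1 and 2, and 0.633 and 0.743 for samples numbered 3 and 4. After quantile normalization, the log2 fold change was -1.78 when samples 1 and 2 were taken alone, against -0.53 for samples 3 and 4. The red samples made most of this gap. The coefficient of variation of the deposited values was 54.1% among red and 11.6% among white samples. Samples 3 and 4 exceeded samples 1 and 2 by 1.43 (log2 of the deposited values) in red light and by 0.28 in white light. After quantile normalization that gap was 0.94 among red and -0.32 among white samples, so that in white light its sign followed the scaling.

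Across all probes, samples 1 and 2 of a light resembled each other, as did samples 3 and 4. Deviations from the group mean correlated across the tested probes with 0.33 to 0.47 within these pairs and with -0.72 to -0.67 between them. Deviations from a mean of 4 samples sum to 0, so that the negative values between pairs largely follow from those within and are no separate result. The labels do not say what the pairs share. The split of Z-ISO in red light ran along the same line, and the part of the pairs in it was not tested.

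Ranks within an array do not depend on how that array was scaled. AT1G78620 was brighter than 89.8% to 95.3% of all probes on the red arrays and than 32.6% to 50.8% on the white arrays. The red mean of this share was 92.6% ± 2.50 and the white mean 43.2% ± 8.09 (SD, n = 4 each). Z-ISO moved the other way, with 42.8% to 68.5% of probes dimmer on the red arrays and 77.6% to 84.7% on the white arrays. For AT1G74470 these shares were 96.9% to 97.5% in red light and 96.4% to 97.3% in white light. Between samples of the same number its rank was higher in red light by 0.15 to 1.05 percentage points. This gene lay near the top of every array, where a rank has little room to rise, so that its rank says little of a difference such as the deposited ratios of 1.80 to 1.97. A rank orders probe brightness and is no measure of transcript abundance between genes.

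**Figure D3:**
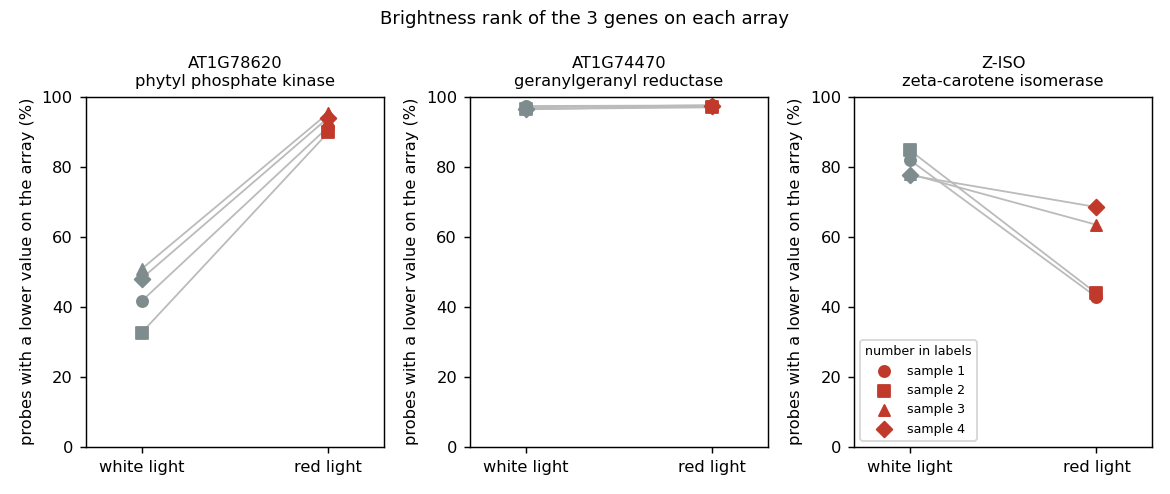
Share of the probes on the same array with a lower value than the gene, in percent, for each white light sample (grey) and red light sample (red). Lines join samples of the same number. AT1G78620 lies at 89.8% to 95.3% in red light and 32.6% to 50.8% in white light, AT1G74470 stays between 96.4% and 97.5%, and Z-ISO lies at 42.8% to 68.5% in red light and 77.6% to 84.7% in white light.

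As deposited, all 3 genes had red and white values that did not overlap, as did 31.5% of the tested probes. After quantile normalization this held for AT1G78620 and Z-ISO and for 29.2% of the tested probes. None of the 24 values of the 3 genes was 0, and the highest was 4.94, so that none lay at 0 or at the upper end of the scale. Values at 0 elsewhere on an array can still enter the folds through its scaling. With centring over all probes, those at 0 included, the log2 fold changes of AT1G78620, AT1G74470 and Z-ISO were 2.92, 1.12 and -0.92. With centring on positive values they were 2.73, 0.93 and -1.11.

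The difference between 2 genes on 1 array cancels any factor that scales the whole array. On the deposited values, the log2 ratio of AT1G78620 to Z-ISO was higher in red light by 3.84 ± 0.23 (SE), or 14.3-fold, and between samples of the same number it was higher by 3.22 to 4.29. The log2 ratio of AT1G78620 to AT1G74470 was higher in red light by 1.81 ± 0.19. That of AT1G74470 to Z-ISO was higher by 2.03 ± 0.33, with 1.40 to 2.66 between samples of the same number. For each of the 3 ratios the red and white arrays did not overlap, and all 4 same-numbered comparisons went the same way. The genes were picked on their red against white values, and 2 of the ratios fix the other. Nothing is therefore read from this separation, and how often other pairs of probes separate so was not counted. On the deposited scale the change was highest for the kinase, then the reductase, then the isomerase. With quantile-normalized values, which bend the scale, the changes of the ratios were 3.91, 2.44 and 1.47.

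Over the 8 arrays, quantile-normalized log2 intensity of AT1G78620 correlated with that of AT1G74470 with r = 0.73 and with that of Z-ISO with r = -0.78. Between AT1G74470 and Z-ISO it was -0.46. These values describe 8 arrays that share the split into red and white and the pairs of similar samples, and carry no p. On log2 deposited values they were 0.96, -0.51 and -0.39.

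Among 428 other probes of 1 gene that lay above the floor on all 8 arrays, the pattern of AT1G78620 was most like that of AT1G17160 (r = 0.99), AT5G64150 (0.98) and AT2G28660 (0.98). Their quantile-normalized log2 fold changes were 1.56 ± 0.19, 1.43 ± 0.25 and 0.68 ± 0.17 (SE), all smaller than that of AT1G78620. Nearest to AT1G74470 were ATSPS4F, a sucrose phosphate synthase gene (r = 0.90), AT4G27250 (0.88) and AT1G22700 (0.87). Their quantile-normalized log2 fold changes were 0.68 ± 0.24, 0.65 ± 0.24 and 1.63 ± 0.67 (SE). As deposited, ATSPS4F had 1.63 ± 0.592 under red and 0.820 ± 0.261 under white light (SD, n = 4 each). Nearest to Z-ISO were AT4G34310 (r = 0.99), the glycosyl hydrolase family 9 gene GH9B11 (0.98) and AT2G21960 (0.95). These had quantile-normalized log2 fold changes of -0.90 ± 0.26, -1.07 ± 0.27 and -0.98 ± 0.38 (SE). As deposited, GH9B11 had 0.400 ± 0.188 under red and 0.701 ± 0.0761 under white light (SD, n = 4 each). Likeness was Pearson's r of quantile-normalized log2 intensity over the 8 arrays, and these genes were picked by it, so that they are given without a test.

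The rest of the pathways was thinly covered. Of 120 genes on 5 lists of phytol and tocopherol, carotenoid, plastid isoprenoid precursor, tetrapyrrole and chlorophyll, and phylloquinone and plastoglobule genes, 11 had a probe of their own, the 3 genes above among them. Another 15 had only probes shared with other genes, which are not named here. On the phytol and tocopherol list of 22 genes, AT1G78620 and AT1G74470 were the 2 measured, on the carotenoid list of 27 genes Z-ISO was the 1 measured, and none of the 14 precursor genes was measured. The neighbouring steps of the 3 enzymes were therefore not analysed here.

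The 8 other measured genes belonged to the tetrapyrrole and chlorophyll list and the plastoglobule list. Of these 8, 1 rose and 3 fell in red light by limma at an adjusted p under 0.05, beside 11.0% and 10.9% of all tested probes, and 4 did not pass. Their median log2 fold change was -0.46, beside -0.03 for all tested probes. That median was -0.21 with the floor at the 20th percentile, -0.29 with an offset of 0.1 in place of the floor and -0.79 over the 6 of these genes that passed a filter on dim probes. The filter asked for values above the floor at the 20th percentile on at least 4 arrays, so that the white samples alone could pass a gene. It left out AT1G51110 and AT5G09820, with log2 fold changes of 0.85 and 0.44, and did not alter the other values. The lower median follows from that choice of genes. With similar samples as a random block limma called 0 of the 8, and 3 had an unadjusted p under 0.05 there.

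Chlorophyll and the phytyl tail meet in the last steps of chlorophyll synthesis, and 3 genes of the tetrapyrrole list were measured. HEMA3, an isoform of glutamyl-tRNA reductase at the start of tetrapyrrole synthesis, rose, with a deposited intensity of 0.361 ± 0.174 under white and 0.966 ± 0.433 under red light (mean ± SD of 4 samples, with a log2 fold change of 1.46 ± 0.37, limma adjusted p = 0.0243, and 0.249 with the random block). SIRB, the sirohydrochlorin ferrochelatase of the siroheme branch, fell, with 0.369 ± 0.0438 under white and 0.187 ± 0.0289 under red light (log2 fold change -0.84 ± 0.24, limma adjusted p = 0.0334, and 0.322 with the random block). CHLM, the methyltransferase of magnesium protoporphyrin, had 0.408 ± 0.170 under white and 0.324 ± 0.0852 under red light (limma adjusted p = 0.681).

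The 5 measured genes of the plastoglobule list were all entered there as fibrillins. Some members of this protein family coat the lipid droplets in which plastids store tocopherol. AT2G46910 fell by 2.09 on the log2 scale (SE 0.47, limma adjusted p = 0.0153, and 0.0692 with the random block). Its deposited intensities were 0, 0, 0.266 and 0.270 in red samples 1 to 4, against 0.453, 0.520, 0.616 and 0.608 in white samples 1 to 4, so that the floor set for low values enters the size of the fall. AT2G35490 fell, with 0.363 ± 0.0535 under white and 0.145 ± 0.0214 under red light (log2 fold change -1.11 ± 0.28, limma adjusted p = 0.0244, and 0.158 with the random block). AT5G19940, AT5G09820 and AT1G51110 did not pass after quantile normalization of all 8 samples, with log2 fold changes of -0.74 ± 0.37, 0.44 ± 0.28 and 0.85 ± 0.36 and limma adjusted p of 0.179, 0.281 and 0.123. The value of AT5G09820 was -0.024 on the deposited scale and -0.0061 with centring on positive values. It lay at the floor in 2 red and 3 white samples, so that the floor enters its fold changes. Its deposited mean was 0.0561 ± 0.0556 under red and 0.0891 ± 0.0132 under white light. AT1G51110 lay at the floor in 1 white sample and AT5G19940 in 1 red sample. AT5G19940 passed on the deposited scale, with -1.03 (limma adjusted p = 0.0326). It also passed in samples 3 and 4 alone (limma adjusted p = 0.0261), and AT1G51110 and AT5G09820 passed in samples 1 and 2 alone (0.0101 and 0.0343), in fits that rest on the spread within those pairs. AT2G46910 shared with Z-ISO its lowest values in red samples 1 and 2, while AT2G35490 was lowest in red samples 3 and 4, at 0.127 and 0.132.

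**Figure D4:**
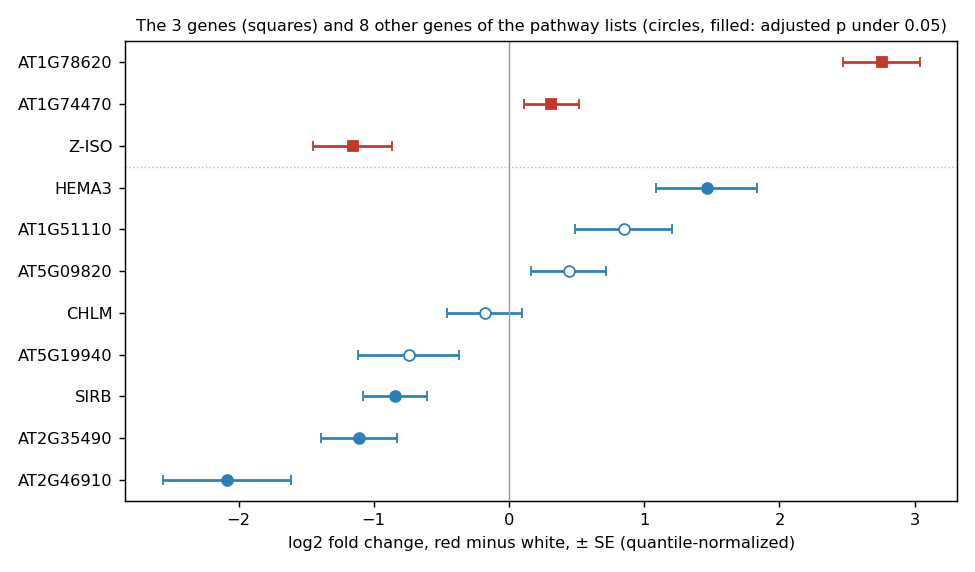
Log2 fold change, red minus white, after quantile normalization, with its SE, for the 3 genes (red squares) and the 8 other measured genes of the pathway lists (blue circles, filled where limma's adjusted p is under 0.05 with all samples taken as independent). AT1G78620 lies at 2.76 and Z-ISO at -1.16, while the other genes run from -2.09 (AT2G46910) to 1.46 (HEMA3).

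Leaving out single samples ended some of these calls. Those of SIRB and AT2G35490 were lost in 5 of 8 cases, with limma adjusted p of 0.0645 to 0.0794 and 0.0519 to 0.0639, and that of HEMA3 in 4 of 8, with 0.0505 to 0.0673. For SIRB the samples were red 1, 3 and 4 and white 1 and 2, for AT2G35490 red 2, 3 and 4 and white 1 and 2, and for HEMA3 red 1, 3 and 4 and white 1. AT2G46910 passed in all 8 cases, with a highest adjusted p of 0.0471.

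Of 12 markers of green tissue, 6 had a probe of their own and 1 of these was listed at 0 on all arrays. Of the 5 tested, limma called 1 higher and 0 lower in red light, 4 did not pass, and the median log2 fold change was 0.45. Their summed deposited intensity, which the brightest probes and the overall brightness of an array can carry, ran from 48.9 to 129.6 on red arrays and from 14.6 to 32.8 on white arrays. None of 7 markers of roots or senescing tissue was measured, so that their share is unknown. The part of tissue makeup in the values of the 3 genes was not tested.

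The 3 genes lie apart from each other on chromosome 1, and each name rests on the platform annotation alone. In the TAIR10.1 gene table, used for names and neighbours, AT1G74470 overlaps RKD2 (AT1G74480). Where the probe lies within AT1G74470 is not given in the sources used here, so that signal from RKD2 cannot be told apart. The same table lists 2 transcripts for AT1G78620, 1 for AT1G74470 and 3 for Z-ISO, which these probes do not distinguish.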

How the data were processed

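The authors deposited 1 column of linear probe intensity for each of 8 samples, and that unit was read from the values themselves. For these intensities, neither background correction nor scaling nor a genome build is stated in the labels. No 2 columns were identical. The number of arrays limits the precision. Probes were named from the platform annotation, in which 692 probes have 1 gene, 870 several and 1877 none, and 690 of the 692 matched the TAIR10.1 table.

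Arrays were quantile-normalized, and values under a common floor of 0.0716, the highest over the arrays of the 5th percentile of positive values, were raised to it. The 407 probes at the floor on all 8 arrays were left out. Log2 values of the other 3032 were fitted with limma 3.58.1 (R 4.3.3) by a two-sided test of red minus white, and p-values were adjusted after Benjamini and Hochberg. Same-numbered red and white samples deviated together from their group means (correlations of 0.24 to 0.32, against -0.21 to 0.11 for different numbers), so that the number was also fitted as a block. It is these data, not the labels, that pair them. The random block joins samples 1 and 2, and samples 3 and 4, of a light (duplicateCorrelation, correlation 0.75).

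The 3 genes, the lists, the rule for naming genes and the tests were chosen with earlier results of these data known. The genes named are the 3 genes, all measured list genes, and the 3 probes of 1 gene most correlated with each. Figures used matplotlib 3.10.9 with pandas 2.3.3 (Python 3.11.15).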

Additional observations from a re-analysis of the deposited data

How the results depend on the processing

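Between the lights, AT1G78620 and AT1G74470 kept their sign above 0 and Z-ISO its sign below 0 in all 17 alternatives run for each. Many of these could not change the sign. The normalized red and white values of AT1G78620 and Z-ISO did not overlap, so that leaving samples out had to keep it. A floor for each array and the replicate number as a block left the fold changes of all 3 genes as they were. The log2 fold change moved by more than the spread between replicates for AT1G78620 with an offset of 0.1 in place of the floor (2.27). It did so for AT1G74470 on the deposited scale (0.92), with centring on positive values (0.93) and with centring over all probes (1.12, chosen after seeing the data), and for Z-ISO in samples 1 and 2 alone (-1.78) and samples 3 and 4 alone (-0.53). Leaving out 1 sample gave 2.59 to 2.89 for AT1G78620, 0.25 to 0.41 for AT1G74470 and -1.35 to -0.99 for Z-ISO.

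The change of the log2 ratio of AT1G78620 to AT1G74470 was 2.44 after quantile normalization and 1.40 with the offset, and 1.67 to 1.94 without 1 sample. For AT1G78620 to Z-ISO it was 3.14 with the offset, 4.24 in samples 1 and 2, 3.45 in samples 3 and 4, and 3.70 to 3.998 without 1 sample. For AT1G74470 to Z-ISO it was 1.47 after quantile normalization, 2.62 in samples 1 and 2, 1.45 in samples 3 and 4, and 1.78 to 2.25 without 1 sample.

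Of all tested probes, limma called 666, and 453 to 613 without 1 sample, 114 with the random block, 0 with similar samples averaged (458 at an unadjusted p under 0.05) and 1254 with a floor for each array. Higher and lower calls numbered 334 and 332, against 294 and 467 on the deposited scale, 325 and 479 with centring on positive values, 868 and 386 with a floor for each array, and 71 and 43 with the random block. With a floor for each array all 3439 probes were tested, and a probe at 0 took the floor of its array. Red arrays had more probes at 0 (573 to 604, against 393 to 468 on white arrays). The 868 and 386 calls can thus reflect the floors themselves, and nothing is read from them. Of the 8 other pathway genes limma called 4, and 5 on the deposited scale, 1 to 4 without 1 sample, 0 with the random block and 0 with similar samples averaged (2 at an unadjusted p under 0.05). With the replicate number as a block, limma called 788 probes and 4 pathway genes, the fold changes were as without it, and neither the calls of the 3 genes nor those of the 8 others changed. Genes that did not pass changed sign in these cases: AT1G51110 was at -0.066 in samples 3 and 4 alone, CHLM at 0.12 in samples 1 and 2 alone, and AT5G09820 at -0.024 on the deposited scale and -0.0061 with centring on positive values. The cause of these shifts was not tested. Signal near the floor limits the order of dim probes.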
